A study of Homo sapiens with 12 samples.

Results

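The BCL2 family decides whether mitochondria release the proteins that start apoptosis. Pro-survival members (BCL2, BCL2L1, MCL1) hold the effectors BAX and BAK1 in check. BH3-only members (BCL2L11, BID, BIK, BAD and PMAIP1, the last known as NOXA) bind the pro-survival proteins or activate the effectors directly, and cells raise or silence them in response to stress. The 10 members read here are the genes named above without BAX, and BCL2L12 as an atypical member. They were taken by name from the 16922 genes that the array names, and every probe of each was read in all samples.

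The cells were LNCaP-S14, a human prostate cancer line derived from LNCaP by stable overexpression of SKP2, so that every group, the vehicle group included, carries this change. Vehicle samples were given DMSO. The treated groups were given SMIP004 at 40 µM, 50 nM bortezomib (BTZ, a proteasome inhibitor), 500 nM camptothecin (CPT, a DNA damaging agent) or 20 µM roscovitine (RVT, a CDK inhibitor). Treatment lasted 24 h. The sample labels name only LNCaP and state the time only for SMIP004, and the line and the other times were taken from the methods of the study. RNA was measured on 12 bead arrays in 10 biological samples, 2 per group, and each SMIP004 sample was run on 2 arrays whose values were averaged. SMIP004 samples were biological replicates by the labels. For the other groups no source used here says whether the samples were separate cultures, so p-values measure the spread between these samples.

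Slide 1 held the DMSO and SMIP004 arrays and slide 2 those of BTZ, CPT and RVT, so slide and compound cannot be told apart when BTZ, CPT or RVT is set against DMSO. Arrays had mean intensities of 473 to 802 and 8737 to 9909 probes with a detection p under 0.01, the limit used here for a detected probe. Of 7 luminal prostate markers with a probe, 6 were detected on both DMSO arrays, the exception being the keratin gene KRT18, and SKP2 was detected on all 12 arrays. No probe for the basal or leukocyte markers was detected on any array. Of the endothelial markers, VWF was detected on all 12 arrays and PECAM1 on none. Of the fibroblast markers, COL1A1 was detected on 8 arrays, and COL3A1 and DCN on none. The luminal markers KLK3 and KLK2 were detected on 3 and 4 arrays. Whether marker levels bear on the results was not tested. The RVT samples stood apart from each other, with 1532 probes at least 2-fold apart, against 1 to 14 probes between the samples of each other group. Since 1 limma model with 1 spread per probe covered all groups, this gap enters every standard error below.

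The 10 genes had 22 probes. Of these, 14 probes from 9 genes were detected throughout at least 1 group and were tested, and the other 8 probes were detected on no array. None of the 3 probes of BCL2 was detected, with intensities of 50.4 to 108.8 and a lowest detection p of 0.0331, so that no level of BCL2 mRNA is given. The untested probes also included 1 each for BCL2L1, BCL2L11 and BID and 2 for BAD, each of which had other probes. Probes detected on all 12 arrays covered 6 genes (BCL2L1, MCL1, BIK, BAD, PMAIP1 and BCL2L12). A probe kept only because 1 group lay above background was selected for a higher level in that group. The counts below therefore describe the tested probes and not the family as a whole. Such selection sets a direction and not whether a difference passes a test. This holds for 4 of the 14 probes, both of BCL2L11 and BID ILMN_2372413, detected throughout with CPT alone, and BCL2L12 ILMN_1731193, detected throughout in DMSO alone. The BAK1 probe was kept through BTZ, CPT and RVT and detected on neither DMSO array, so the filter favoured its higher values with these compounds. Levels are log2 values after background correction and quantile normalization. They are compared between samples of the same probe, never between probes.

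**Figure D1:**
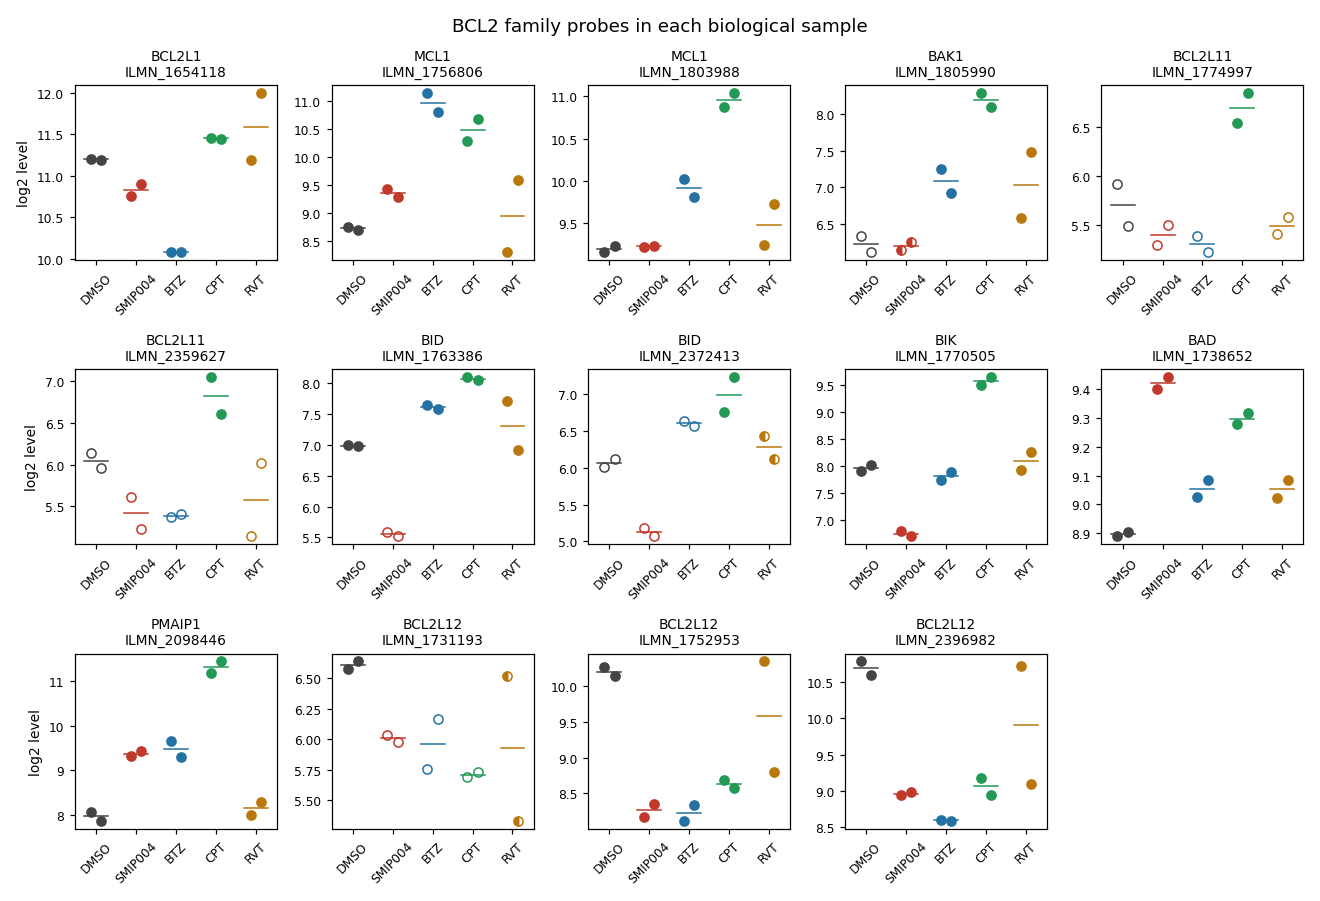
Levels (log2) of the 14 tested probes in each biological sample, with samples 1 and 2 of a group side by side and a line at the group mean. Filled points stand for groups detected on all arrays, open points for groups detected on none and points filled on 1 side for groups detected on some. BID ILMN_1763386 and BIK lie lowest with SMIP004, BCL2L1 lies lowest with BTZ, and PMAIP1 and BAK1 lie highest with CPT.

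SMIP004 raised BAD and PMAIP1 and lowered BID, BIK and BCL2L12, while neither BCL2L1 nor MCL1 passed. BTZ raised MCL1, BAK1, BID and PMAIP1 and lowered BCL2L1 and BCL2L12. CPT raised both MCL1 probes, BAK1, BID, BIK, BAD and PMAIP1 and lowered BCL2L12, and BCL2L11 was also higher, on probes that only the CPT arrays detected. RVT changed none at the threshold.

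In counts, 7 of 14 probes passed with SMIP004 (2 higher, 5 lower), where 58.3% of all 11111 tested probes passed, 29.0% as higher and 29.3% as lower (limma, Benjamini-Hochberg adjusted p under 0.05). With BTZ 9 passed (6 higher, 3 lower) against 64.6% of all probes, 32.8% higher and 31.8% lower, so that neither share stood clear of the background. With CPT 13 passed (10 higher, 3 lower) against 63.0% of all probes, 31.5% higher and 31.6% lower, and these 13 include the 4 probes kept through 1 group. Of the 10 probes kept through several groups, 6 passed with SMIP004 (2 higher, 4 lower), 8 with BTZ (5 higher, 3 lower) and 9 with CPT (7 higher, 2 lower). With RVT 0 passed against 8.78% of all probes. At an unadjusted p under 0.05 (limma) 1 member probe, BAK1, passed with RVT, against 32.5% of all probes. By the thresholds in the study's methods, at least 2-fold with an unadjusted p of 0.05 or less, 5 member probes passed with SMIP004 (31.1% of all probes), 5 with BTZ (37.2%), 8 with CPT (34.0%) and 0 with RVT (6.03%). Over all 5 groups 13 of 14 probes passed limma's F test, as did 92.0% of all probes, and BCL2L12 ILMN_1731193 was the exception (adjusted p 0.182).

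Grouped by role, with no test of the groups, the probes detected on all 12 arrays had these medians. Among the 3 pro-survival probes (BCL2L1 and both of MCL1), the median log2 change was 0.03 with SMIP004, 0.72 with BTZ, 1.76 with CPT and 0.29 with RVT. Each of these medians is the value of an MCL1 probe. The change of BCL2L1 was -0.37 with SMIP004, -1.11 with BTZ, 0.25 with CPT and 0.40 with RVT. Among the 3 pro-death probes (BIK, BAD and PMAIP1) the median was 0.53 with SMIP004, 0.16 with BTZ, 1.61 with CPT and 0.16 with RVT. With SMIP004 that median is the value of BAD, between a fall of BIK and a rise of PMAIP1. This set leaves out BID ILMN_1763386, which fell with SMIP004 to where no array detected it. The median over all tested probes stayed between -0.01 and 0.02 in these comparisons. Quantile normalization gives every array the same distribution, so this median is held near its place by the processing and is no independent baseline. With arrays scaled to 1 median instead it was -0.20 with BTZ and -0.30 with CPT. Of the 5 pro-death probes kept through several groups, 2 rose and 2 fell with SMIP004, 3 rose and 0 fell with BTZ, and 5 rose with CPT. They include BAK1, detected on neither DMSO array, so the filter favoured its rises with BTZ and CPT. The median of these 5 was -0.03 with SMIP004, 0.63 with BTZ, 1.61 with CPT and 0.18 with RVT. The other 3 pro-death probes were kept because CPT alone lay above background, so their higher value with CPT was fixed by the filter. All comparisons share the same DMSO samples.

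**Figure D2:**
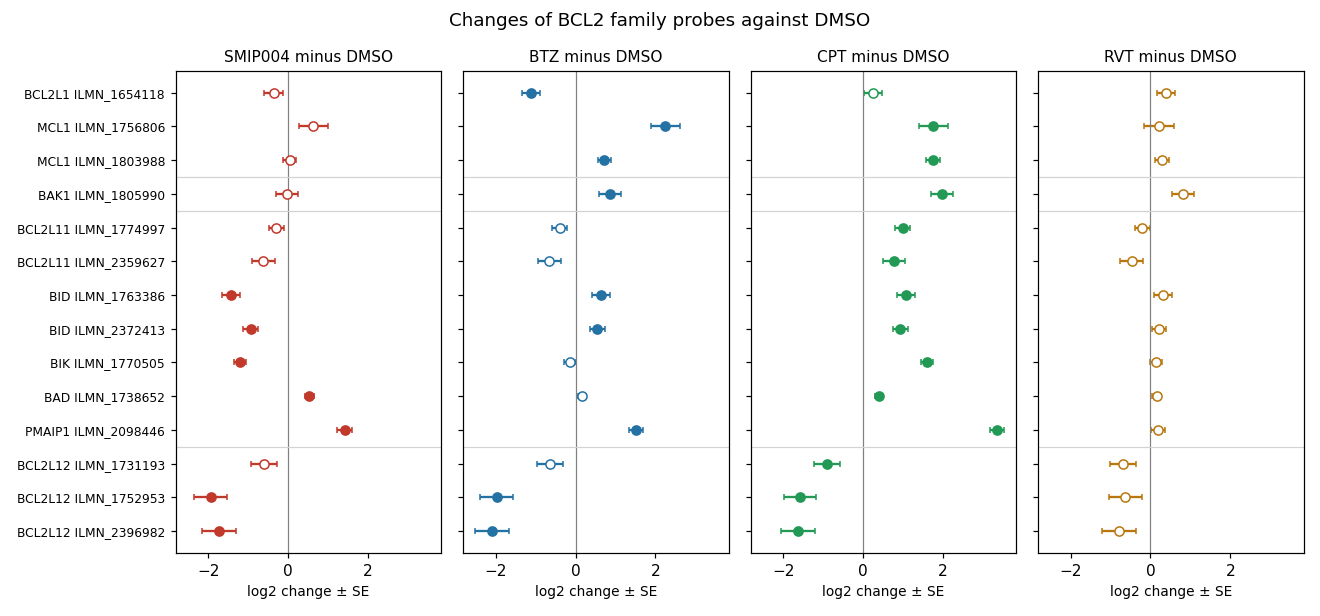
Log2 change of each tested probe against DMSO with its standard error from limma, n = 2 biological samples per group, on 1 shared horizontal scale. Filled points passed at an adjusted p under 0.05, and grey lines separate pro-survival, effector, BH3-only and atypical members. With CPT the points of BAK1, BID ILMN_1763386, BIK, BAD and PMAIP1 are filled and lie right of 0. So do those of the 3 pro-death probes kept through CPT alone, whose direction was fixed by the filter. The filter also favoured the rise of BAK1, which no DMSO array detected. No point is filled with RVT.

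BCL2L1, whose main product BCL-XL restrains BAX and BAK1 at the mitochondrial membrane, was measured by ILMN_1654118 at 11.20 and 11.19 in the DMSO samples. The SMIP004 samples were at 10.75 and 10.91, and both BTZ samples were at 10.08. The CPT samples lay at 11.46 and 11.44 and the RVT samples at 11.19 and 11.99. The BTZ samples were the lowest of all 10. Against DMSO, BCL2L1 fell with BTZ by 1.11 on the log2 scale (SE 0.229, adjusted p 0.00313, limma), or 2.17-fold. With SMIP004 the change was -0.37 (SE 0.229, adjusted p 0.203) although its samples did not overlap with DMSO. Without the RVT samples in the model the same SMIP004 change had an SE of 0.101 and passed (adjusted p 0.00623), as did the CPT change of 0.25 (adjusted p 0.0387).

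MCL1 encodes a short-lived pro-survival protein that proteasomes degrade quickly and that PMAIP1 binds. Probe ILMN_1756806 read 8.75 and 8.71 in DMSO, 9.44 and 9.28 with SMIP004, and 11.15 and 10.81 with BTZ. With CPT it was at 10.29 and 10.68, and with RVT at 8.30 and 9.59. Every BTZ and CPT sample lay above every DMSO and SMIP004 sample. Probe ILMN_1803988 read 9.16 and 9.24 in DMSO, 9.22 and 9.24 with SMIP004, and 10.03 and 9.81 with BTZ. With CPT it was at 10.88 and 11.04, and with RVT at 9.24 and 9.73. On this probe the SMIP004 samples overlapped with DMSO, and the CPT samples were the highest.

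MCL1 rose with BTZ by 2.25 on the first probe (SE 0.366, adjusted p 0.000938), or 4.75-fold, and by 0.72 on the second (SE 0.175, adjusted p 0.00688), or 1.65-fold (limma). With CPT both probes rose by 1.76, or 3.38-fold (adjusted p 0.00377 and 0.000108). With SMIP004 the first probe changed by 0.63 (adjusted p 0.172) and the second by 0.03 (adjusted p 0.889). Without the RVT samples in the model the first passed (adjusted p 0.00239) and the second did not (adjusted p 0.807). The rise of the second probe with BTZ did not pass without BTZ sample 1 (0.62, adjusted p 0.052) or with arrays scaled to 1 median (0.46, adjusted p 0.0755).

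The probes of MCL1 therefore gave unequal changes for the same RNA samples. Their changes relative to DMSO were 0.60 apart with SMIP004 and 1.53 apart with BTZ, the first probe being higher, and level with CPT. The array annotation assigns both to MCL1, and where in the transcript each one binds was not analysed here.

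**Figure D3:**
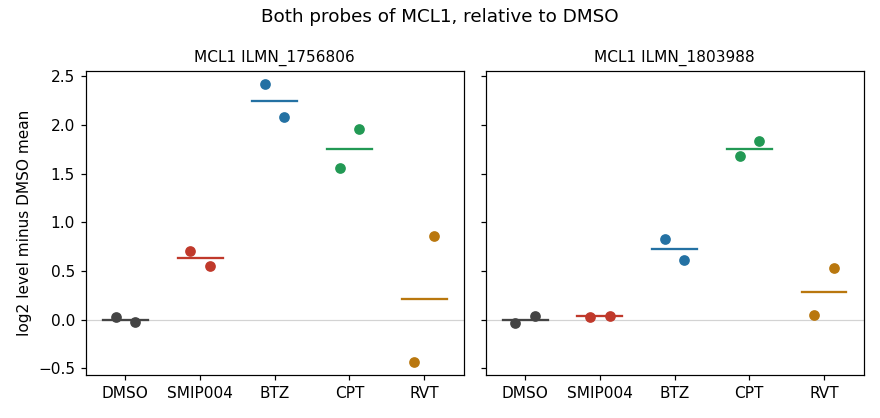
Log2 level of each MCL1 probe in each biological sample minus that probe's own DMSO mean, with lines at the group means and a grey line at 0. The BTZ samples stand 2.25 higher on ILMN_1756806 and 0.72 higher on ILMN_1803988, while the CPT samples stand 1.76 higher on both.

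BAK1, the effector that forms pores in the outer mitochondrial membrane, had 1 probe near background. It was detected on neither DMSO array, on 1 of 4 SMIP004 arrays and on all arrays of the other compounds. The probe was thus kept through BTZ, CPT and RVT, which favoured higher values there than in DMSO. The DMSO samples were at 6.33 and 6.11 and the SMIP004 samples at 6.14 and 6.25, which overlap. The BTZ samples reached 7.26 and 6.92, the CPT samples 8.29 and 8.10 and the RVT samples 6.57 and 7.48. All samples of BTZ, CPT and RVT lay above those of DMSO and SMIP004.

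For a probe that no array of a group detected, a change is given as a lower bound, for which the undetected group is set to the lowest signal among detected probes of its arrays where its own signal is lower. On that scale BAK1 was at least 3.32-fold higher with CPT (adjusted p 0.000524, limma) and at least 1.54-fold higher with BTZ (adjusted p 0.0234). With RVT it was at least 1.48-fold higher and did not pass (adjusted p 0.094). The BTZ call was lost without BTZ sample 1 (adjusted p 0.134), DMSO sample 1 (0.0561) or DMSO sample 2 (0.117), and with arrays scaled to 1 median (0.0807). The CPT call held in each of these.

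PMAIP1, a BH3-only gene that p53 and the integrated stress response can both induce, had the widest range of group means among the members. Its probe was detected on all 12 arrays. The DMSO samples were at 8.06 and 7.87 and the RVT samples at 8.0 and 8.29. SMIP004 brought 9.32 and 9.43, BTZ 9.66 and 9.30, and CPT 11.19 and 11.45. The RVT samples overlapped with DMSO, SMIP004 and BTZ formed a middle level in which they overlapped with each other, and CPT stood above all.

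PMAIP1 rose 2.66-fold with SMIP004 (log2 change 1.41, SE 0.179, adjusted p 0.000309), 2.86-fold with BTZ (1.52, adjusted p 0.000176) and 10.2-fold with CPT (3.35, adjusted p 6.1e-06, limma). The difference between SMIP004 and BTZ was -0.11, with a 95% interval of -0.52 to 0.31 (adjusted p 0.657). SMIP004 minus CPT was -1.94 (adjusted p 3.72e-05) and BTZ minus CPT was -1.84 (adjusted p 4.83e-05), and the last of these pairs lay on 1 slide. With RVT the log2 change was 0.18 (95% interval -0.23 to 0.59). No alternative setting and no left-out sample changed any of the PMAIP1 calls against DMSO.

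BIK, a BH3-only gene whose protein sits mainly at the endoplasmic reticulum, showed opposite calls. Its levels were 7.90 and 8.02 in DMSO, 6.79 and 6.69 with SMIP004, and 7.75 and 7.89 with BTZ. CPT samples were at 9.50 and 9.64 and RVT samples at 7.92 and 8.26. SMIP004 samples were the lowest and CPT samples the highest of all 10. The probe's highest detection p was 0.00904, close to the limit of 0.01. The arrays of SMIP004 sample 2 read 6.43 and 6.95, the widest gap between arrays of 1 sample on a tested member probe (0.53). BIK fell 2.33-fold with SMIP004 (log2 change -1.22, SE 0.150, adjusted p 0.000277) and rose 3.05-fold with CPT (1.61, adjusted p 8.16e-05, limma). The direct difference, SMIP004 minus CPT, was -2.83 on the log2 scale, or 7.1-fold (adjusted p 2.61e-06). With BTZ the change of -0.14 did not pass (adjusted p 0.439), but it passed as -0.44 with arrays scaled to 1 median (adjusted p 0.0423).

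BID links death receptors to mitochondria once caspase-8 has cut its protein. Probe ILMN_1763386 read 7.00 and 6.97 in DMSO, 7.64 and 7.58 with BTZ, and 8.09 and 8.05 with CPT. With RVT it read 7.70 and 6.91. The SMIP004 samples, at 5.58 and 5.52, were the only ones in which no array detected the probe. BID was at least 1.48-fold lower with SMIP004 than with DMSO (measured log2 change -1.44, adjusted p 0.000922) and at least 3.14-fold lower than with CPT (adjusted p 3.14e-05, limma). With CPT it rose 2.12-fold against DMSO (1.08, adjusted p 0.00374).

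The rise of BID with BTZ was smaller, at 0.63 (SE 0.225, adjusted p 0.0381). It did not pass without any 1 of the DMSO, SMIP004, BTZ or CPT samples (adjusted p 0.0601 to 0.135), with no filter on dim probes (0.0633) or with median scaling (0.35, adjusted p 0.293). The second BID probe, ILMN_2372413, was dim and was detected on both CPT arrays and 1 RVT array only. It was at 6.0 and 6.12 in DMSO, 5.18 and 5.07 with SMIP004, 6.64 and 6.56 with BTZ, 6.76 and 7.23 with CPT, and 6.44 and 6.12 with RVT. The order of its groups was the same as on the first probe, from SMIP004 to CPT. It passed as lower with SMIP004 (adjusted p 0.00274) and higher with BTZ (adjusted p 0.0293), but neither group of these comparisons was detected, so no fold is given. Its BTZ call was lost without any 1 of the BTZ or DMSO samples (adjusted p 0.0729 to 0.13), with median scaling (0.175), with no background correction (0.0614) and with the authors' log2 values (0.0616). With CPT it was at least 1.44-fold higher (adjusted p 0.00278, limma), a direction fixed by the filter, since the probe was kept through CPT alone.

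BCL2L11 encodes BIM, which can bind every pro-survival member. Of its 3 probes, 1 was detected on no array and the others on both CPT arrays and no other. ILMN_1774997 was at 6.54 and 6.85 with CPT and between 5.22 and 5.92 in the other samples. ILMN_2359627 was at 7.04 and 6.60 with CPT and between 5.14 and 6.13 elsewhere. On both probes each CPT sample exceeded every other sample. Against DMSO the bounds were at least 1.17-fold (adjusted p 0.00224) and at least 1.28-fold higher (adjusted p 0.0435, limma).

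Both tested BCL2L11 probes were kept through CPT alone, so their higher value with CPT was fixed by the filter. Alternatives that reuse these probes are therefore no independent check of that rise. The call of the first BCL2L11 probe held under every alternative, among them the block by replicate number. That of the second was lost when any 1 of the DMSO, SMIP004, BTZ or CPT samples was left out (adjusted p 0.0531 to 0.225), with no filter on dim probes (0.0787), with median scaling (0.0785) and with the block by replicate number (0.0601). For SMIP004 and BTZ against DMSO, where neither group was detected, no call on BCL2L11 was made in the model of all groups. Without the RVT samples ILMN_2359627 passed as lower with both (adjusted p 0.00398 and 0.00264), again below background on both sides.

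BAD, whose protein is held inactive by phosphorylation and 14-3-3 proteins, had the narrowest range of group means among the tested probes. Its tested probe read 8.89 and 8.90 in DMSO, 9.40 and 9.44 with SMIP004, and 9.28 and 9.32 with CPT. Both BTZ and RVT gave 9.02 and 9.08. Samples of a group differed by at most 0.06, and every treated sample lay above both DMSO samples. BAD rose 1.44-fold with SMIP004 (0.53, SE 0.107, adjusted p 0.0035) and 1.32-fold with CPT (0.40, adjusted p 0.0116, limma). The SMIP004 call held under every alternative. The CPT call was lost without CPT sample 2 (adjusted p 0.0569), DMSO sample 1 (0.0572) or DMSO sample 2 (0.0516), and with median scaling it shrank to 0.09 (adjusted p 0.628).

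Among the pro-death members with 1 promoter in the RefSeq table (GRCh38.p14), BAK1, BCL2L11 and PMAIP1 rose with CPT on all tested probes. For BCL2L11 this was fixed by the filter, since its tested probes were kept through CPT alone. For BAK1 the filter favoured it, since no DMSO array detected its probe. The 150 bases before the transcription starts of the 3 genes are shown 5′ to 3′ on the gene's strand. They were chosen by these CPT calls, which are no evidence of a shared response. With SMIP004 only PMAIP1 of the 3 passed, and with BTZ only BAK1 and PMAIP1 did. Capitals mark a short form of the cAMP response element (TGACG, here on the reverse strand and contained in the full element), chosen for the search after the sequences had been seen.
BAK1, chr6:33580277-33580426, minus strand: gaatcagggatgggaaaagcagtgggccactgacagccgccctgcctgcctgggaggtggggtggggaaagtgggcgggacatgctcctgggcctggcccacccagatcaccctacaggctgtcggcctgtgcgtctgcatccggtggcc
BCL2L11, chr2:111120764-111120913, plus strand: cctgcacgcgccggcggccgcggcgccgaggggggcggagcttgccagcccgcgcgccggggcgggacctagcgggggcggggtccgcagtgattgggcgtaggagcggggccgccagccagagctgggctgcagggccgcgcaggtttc
PMAIP1, chr18:59899846-59899995, plus strand: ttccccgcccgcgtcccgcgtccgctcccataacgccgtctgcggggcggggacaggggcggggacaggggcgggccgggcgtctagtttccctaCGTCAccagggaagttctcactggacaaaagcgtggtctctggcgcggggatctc
This match lay 51 to 55 bases before the PMAIP1 start. It also occurred in these 150 bases of BAD and BCL2L12, and in 15.4% of all 35116 promoters of the table. The full cAMP response element (TGACGTCA), the amino acid response element (TGATGNAAN) and the heat shock element core (GAANNTTC), searched on both strands, had no match in this window of any of the 8 members in the table. They matched 1.4%, 1.89% and 3.26% of all promoters. A match is a description of the letters and not a binding site.

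BCL2L12, an atypical member whose protein has been described as a restraint on effector caspases in glioblastoma cells, was the one member lowered by SMIP004, BTZ and CPT alike. Probe ILMN_1752953 read 10.27 and 10.14 in DMSO, 8.16 and 8.35 with SMIP004, 8.12 and 8.34 with BTZ, and 8.69 and 8.57 with CPT. Its RVT samples were at 10.35 and 8.81. Probe ILMN_2396982 read 10.78 and 10.59 in DMSO, 8.94 and 8.98 with SMIP004, 8.61 and 8.59 with BTZ, and 9.18 and 8.95 with CPT. Its RVT samples were at 10.72 and 9.09. On both probes RVT sample 1 lay with DMSO, while RVT sample 2 lay near the CPT samples.

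The first of these probes fell 3.85-fold with SMIP004 (log2 change -1.95, SE 0.408, adjusted p 0.00408), 3.94-fold with BTZ (-1.98, adjusted p 0.0032) and 2.98-fold with CPT (-1.57, adjusted p 0.0103, limma). The second fell 3.31-fold, 4.26-fold and 3.08-fold (adjusted p 0.00885, 0.00303 and 0.011). The second probe did not pass for SMIP004 without DMSO sample 1 (-1.63, adjusted p 0.0531). For CPT neither passed without CPT sample 2 (adjusted p 0.0557 and 0.0636) or DMSO sample 1 (0.055 and 0.0607). No direct difference among SMIP004, BTZ and CPT passed on BCL2L12, where the SMIP004 minus BTZ difference of the first probe had a 95% interval of -0.91 to 0.97. Without the RVT samples in the model 4 passed: SMIP004 minus BTZ on the second probe (0.36, adjusted p 0.0146), SMIP004 minus CPT on the first (-0.37, adjusted p 0.0132) and BTZ minus CPT on both (-0.40 and -0.47, adjusted p 0.0085 and 0.00278).

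The remaining, dim BCL2L12 probe (ILMN_1731193) was detected on both DMSO arrays and on 1 RVT array only. This probe was kept through DMSO alone, so its lower value with CPT was fixed by the filter. It was at 6.58 and 6.64 in DMSO and from 5.69 to 6.17 with SMIP004, BTZ and CPT, while the RVT samples were at 6.51 and 5.33. With CPT it was at least 1.23-fold lower (adjusted p 0.0426), a call lost without any 1 of the DMSO, SMIP004, BTZ or CPT samples (adjusted p 0.0581 to 0.141), with no filter on dim probes (0.08) and with the block by replicate number (0.053). In these bulk samples a smaller share of cells with a transcript and less of it per cell cannot be told apart.

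With RVT no member passed against DMSO, and its samples differed by more than 0.8 on the log2 scale on 7 of the 14 probes. Sample 2 was above sample 1 by 0.80 for BCL2L1, 1.29 for MCL1 ILMN_1756806, 0.91 for BAK1 and 0.87 for BCL2L11 ILMN_2359627, which neither RVT array detected. It was below sample 1 by amounts that gave -1.18, -1.54 and -1.63 on the BCL2L12 probes and -0.79 on BID ILMN_1763386. BAD, at 0.06, and BCL2L11 ILMN_1774997, at 0.18, were the closest. Between the samples of the other groups the widest gap on a member probe was 0.47, for BID ILMN_2372413 with CPT.

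Which RVT sample was used set the calls. Without sample 1, 7 of 14 probes passed, where 56.1% of all probes did. They were BCL2L1 (0.80, adjusted p 0.000212), both MCL1 probes (0.86 and 0.53), BAK1, which DMSO arrays did not detect, both bright BCL2L12 probes (-1.40 and -1.59) and the dim one. Without sample 2, 2 passed, against 18.1% of all probes, namely BCL2L11 ILMN_2359627, undetected on both sides (adjusted p 0.0108), and BID ILMN_1763386 (0.71, adjusted p 0.00321). Neither share stood above that of all probes. The lone sample left was assumed to vary like the other groups. PMAIP1 and BIK passed in neither case.

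**Figure D4:**
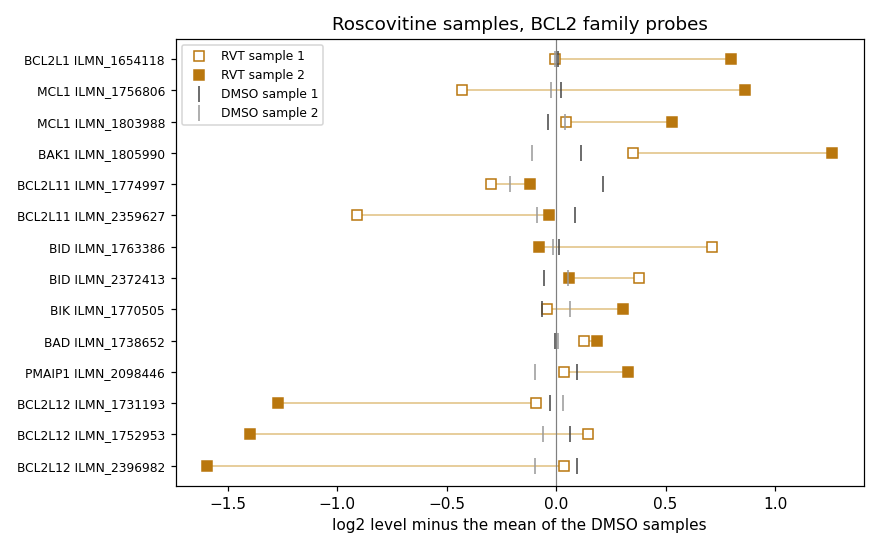
Log2 level of each tested probe in the RVT samples (open square, sample 1, and filled square, sample 2) and the DMSO samples (ticks) minus the DMSO mean. Sample 2 lies at -1.59 on BCL2L12 ILMN_2396982 and 0.86 on MCL1 ILMN_1756806, where sample 1 lies at 0.04 and -0.43.

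The gap also widened the standard errors of the other comparisons. Without the RVT samples in the model, 11 probes passed for SMIP004 (3 higher, 8 lower), 12 for BTZ (6 higher, 6 lower) and 14 for CPT (11 higher, 3 lower). The share of all probes that passed rose as well, to 74.8%, 77.6% and 76.1%. Those added for SMIP004 were BCL2L1, MCL1 ILMN_1756806, BCL2L11 ILMN_2359627 and BCL2L12 ILMN_1731193 (adjusted p 0.00129). Those added for BTZ were both BCL2L11 probes and BCL2L12 ILMN_1731193 (adjusted p 0.000705), and BCL2L1 was added for CPT. Every call of the full model held in this one.

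The scaling of the arrays bore on several comparisons, within slide 2 as well as across slides. With arrays scaled to 1 median in place of quantile normalization, the median of all probes shifted to -0.20 with BTZ and -0.30 with CPT, against 0.01 and -0.005 before. The share of calls that were higher went from 50.7% to 38.3% with BTZ, from 49.9% to 33.8% with CPT and from 48.1% to 32.7% with RVT. On slide 2 it went from 48.9% to 31.8% for CPT against RVT and from 50.7% to 40.6% for BTZ against RVT. For BTZ against CPT, also on slide 2, it was 51.4% and 53.0%. Across slides it went from 49.0% to 67.2% for SMIP004 against BTZ and from 49.8% to 63.0% for SMIP004 against CPT. For SMIP004 against RVT it stayed near its value (49.5% and 51.8%). Member calls went to 2 higher and 5 lower with BTZ (61.5% of all probes called), where MCL1 ILMN_1803988 (0.46, adjusted p 0.0755), BAK1 and both BID probes no longer passed. With CPT they went to 8 higher and 3 lower (61.0% of all probes). With SMIP004, on the same slide as DMSO, they stayed at 2 higher and 5 lower (54.7%).

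The compounds were also set against each other in 6 pairs, which gave 47 calls on member probes. SMIP004 against BTZ gave 8 of 14 (48.8% of all probes), SMIP004 against CPT 10 (65.4%) and SMIP004 against RVT 8 (55.6%), all across slides. On slide 2, BTZ against CPT gave 7 (65.6%), BTZ against RVT 5 (60.1%) and CPT against RVT 9 (47.8%). Each compound was used at 1 dose.

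SMIP004 and BTZ differed on BID (ILMN_1763386 at least 2.29-fold lower with SMIP004, adjusted p 0.000228) and BIK (log2 difference -1.08, adjusted p 0.000746). They also differed on BCL2L1 (0.75 higher with SMIP004, adjusted p 0.0268), on both MCL1 probes (-1.62, adjusted p 0.00737, and -0.69, adjusted p 0.0121), on BAK1 (-0.89, adjusted p 0.0274, with 1 of 4 SMIP004 arrays above the detection limit) and on BAD (0.37, adjusted p 0.0221). The BID and BIK differences passed whichever sample was left out. Those on BCL2L1, BAK1 and BAD were lost without any 1 of the SMIP004 or BTZ samples (adjusted p 0.0548 to 0.152). That on MCL1 ILMN_1756806 was lost without BTZ sample 1 (adjusted p 0.0543), and that on ILMN_1803988 without BTZ sample 1 or either SMIP004 sample (0.0618 to 0.0818). With median scaling the differences on MCL1 ILMN_1803988 (adjusted p 0.0963) and BAK1 (0.104) did not pass, and with no filter on dim probes that on BAK1 did not (0.051).

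BTZ and CPT, which shared a slide, parted on BCL2L1 (BTZ minus CPT -1.37, adjusted p 0.000945) and on BIK (-1.75, adjusted p 2.54e-05). BAK1 was lower with BTZ as well (-1.11, adjusted p 0.00732), a call lost without BTZ sample 2 (adjusted p 0.0562). MCL1 ILMN_1803988 was lower with BTZ (-1.04, adjusted p 0.000978), while ILMN_1756806 differed by 0.49 with a 95% interval of -0.35 to 1.34 and passed without the RVT samples (adjusted p 0.00974). CPT exceeded RVT on the same slide by 3.17 for PMAIP1 (9.01-fold, adjusted p 8.86e-06), by 1.48 for BIK and by 1.17 for BAK1. The BAK1 difference did not pass without CPT sample 1 (adjusted p 0.0585) or with only these groups in the model (0.0863).

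In the order of group means, PMAIP1 ran from DMSO and RVT over SMIP004 and BTZ to CPT, with only the steps up to SMIP004 and up to CPT past the threshold. BIK ran from SMIP004 over BTZ, DMSO and RVT to CPT, and the 3 middle groups did not differ at the threshold. BCL2L1 ran from BTZ over SMIP004, DMSO and CPT to RVT, and of the neighbours only BTZ and SMIP004 differed.

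The remaining BCL2 family genes were read on the probe of highest mean for each gene. Of 16 listed, 9 were measured, of which 4 rose with SMIP004, 5 rose and 1 fell with BTZ, 6 rose with CPT, and 1 rose and 1 fell with RVT. Among all probes 58.3%, 64.6%, 63.0% and 8.78% passed in these comparisons. BAX, the other effector, was at 8.39 and 8.52 in DMSO, 8.50 and 8.29 with SMIP004, 10.27 and 10.07 with BTZ, 10.99 and 11.16 with CPT, and 9.52 and 10.33 with RVT. SMIP004 samples overlapped with DMSO, and all samples of the other compounds lay above them. BAX rose with BTZ (1.72, SE 0.244, adjusted p 0.000465) and CPT (2.62, adjusted p 8e-05) and changed by -0.06 with SMIP004 (adjusted p 0.857, limma). Its rise with RVT (1.47, adjusted p 0.0205) was lost without any 1 of the DMSO, SMIP004 or CPT samples (adjusted p 0.0502 to 0.155) and with only these groups in the model (0.392).

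BNIP1, which encodes a SNARE protein of the endoplasmic reticulum with a BH3 motif, rose with SMIP004 (1.92, adjusted p 0.000349) and BTZ (2.37, adjusted p 9.96e-05). With CPT its change of 0.55 did not pass (adjusted p 0.0862). BOK, an effector-like member, rose with BTZ (1.68, adjusted p 0.000166) and changed by 0.26 with SMIP004 (adjusted p 0.285). Its rise with CPT (0.65, adjusted p 0.0195) was lost without CPT sample 2 (0.40, adjusted p 0.133) or either DMSO sample (0.0661 and 0.0872) and with median scaling (0.41, adjusted p 0.0686). The pro-survival gene BCL2L2 rose with SMIP004 (0.85, adjusted p 0.0102), a call lost without DMSO sample 1 (0.66, adjusted p 0.0793) or SMIP004 sample 2 (0.67, adjusted p 0.0805). The BH3-only genes BBC3, BMF and HRK had no probe detected throughout a group. BMF had 1 probe detected on 1 array, and their other probes were detected on none.

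Downstream of the family, 10 of 14 listed genes for mitochondrial release and the apoptosome were measured. With SMIP004 3 fell, with BTZ 1 rose and 6 fell, with CPT 1 rose and 5 fell, and with RVT 0 passed (limma). With RVT 0 passed at an unadjusted p under 0.05 as well, where 32.5% of all probes did. The counts at the adjusted threshold, 3, 7, 6 and 0 of 10, stand beside 58.3%, 64.6%, 63.0% and 8.78% of all probes. APAF1, the scaffold of the apoptosome, rose with CPT (2.03, SE 0.318, adjusted p 0.000925). With BTZ it was at least 1.46-fold lower (adjusted p 0.0138), a call lost without BTZ sample 2 (adjusted p 0.101), DMSO sample 1 (0.0515) or DMSO sample 2 (0.0677). ENDOG, a nuclease kept in mitochondria, fell with SMIP004 (-1.14, adjusted p 0.000737) and BTZ (-1.79, adjusted p 6.39e-05). AIFM1, a mitochondrial oxidoreductase, fell with CPT (-1.78, adjusted p 0.0016). PPIF, the cyclophilin of the mitochondrial matrix, was at least 1.59-fold lower with SMIP004 (adjusted p 0.00516).

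Of 24 listed genes for proteins that act on BCL2 family proteins, 19 were measured. Among them 3 rose and 6 fell with SMIP004, 10 rose and 3 fell with BTZ, 5 rose and 6 fell with CPT, and 1 rose and 1 fell with RVT. These counts of 9, 13, 11 and 2 of 19 stand beside the same 58.3%, 64.6%, 63.0% and 8.78% of all probes. HUWE1, a ubiquitin ligase for MCL1, rose with BTZ (1.15, SE 0.144, adjusted p 0.000234) and was at least 3.25-fold lower with CPT (adjusted p 2.08e-05). FBXW7, the substrate receptor of another MCL1 ligase, rose with CPT (2.90, SE 0.613, adjusted p 0.00403). Its change with BTZ (1.69, adjusted p 0.0398) did not pass without any 1 of the DMSO, SMIP004, BTZ or CPT samples (adjusted p 0.0598 to 0.145), with no filter on dim probes (0.0823) or with median scaling (0.0557). AKT1, a kinase that phosphorylates BAD, fell with SMIP004 (-1.73, adjusted p 0.000372) and BTZ (-1.39, adjusted p 0.000972). Of the 14-3-3 genes, YWHAH fell with both (-1.47, adjusted p 0.00732, and -1.43, adjusted p 0.00736), as did YWHAQ (-0.97, adjusted p 0.00196, and -0.68, adjusted p 0.00983). YWHAG fell with SMIP004 (-0.45, adjusted p 0.0131) and rose with BTZ (1.03, adjusted p 0.00017), and YWHAB, YWHAE and YWHAZ passed with neither, except that YWHAB was lower with BTZ under median scaling (-0.59, adjusted p 0.0431). YWHAG and YWHAQ lie outside the naming rule and were added after their values were seen.

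The genes most like 3 members with the widest ranges were found by Pearson's r over the 10 samples, as a description that rests on the same arrays and 5 groups. For PMAIP1 they were ADGRF4 (0.990), CDKN2B (0.984) and SPRTN (0.979). For BIK they were PLA2G15 (0.990), LPAR6 (0.986) and CRISPLD2 (0.985), and for BID ILMN_1763386 they were RAB35 (0.973), UNC45A (0.967) and WDR55 (0.966).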

How the data were processed

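The authors scanned the arrays and deposited bead-averaged intensities, 1 for each probe on each array, not normalized, with a detection p-value, which the deposited file computes against negative controls. They also deposited quantile-normalized log2 values, which served as an alternative. The study's methods name no test for the arrays but state thresholds of 2-fold and a p of 0.05. Log2 values were made from the intensities with limma 3.58.1 (R 4.3.3), whose neqc function subtracts background, adds an offset (16) and normalizes by quantiles. Of 24526 probes, 11111 were kept because all arrays of some group had detection p-values under 0.01. Of all probes, 21834 were named by 1 gene, 2692 by several or none. Gene names were updated through RefSeq (99.9% matched).

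One limma model (lmFit, eBayes, 5 residual and 3.03 prior degrees of freedom) covered the 10 biological samples, and p-values were adjusted by Benjamini-Hochberg over all kept probes. No term for the slide could be fitted. Intervals are 95% intervals from limma. The number of arrays limits the precision. The model was tested on simulated data. Members, gene lists and the naming rule (every probe of the members, and in each other list at most 2 called genes per compound) were chosen with earlier results of these data known. Alternatives changed the normalization, scaling, offset, filter, technical arrays, moderation, samples in the model, probe choice, replicate block and call rule, and left out each sample in turn. Figures were drawn with matplotlib 3.10.9 (Python 3.11.15).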

Additional observations from a re-analysis of the deposited data

How the results depend on the processing

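For the 14 tested probes in 10 comparisons, 3016 values were recomputed under 23 alternatives, and 2790 kept their side of the threshold (40 of them, uncalled in both, with the other sign), 127 lost a call, 97 gained one and 2 reversed. Both reversals concerned BCL2L12 ILMN_1731193 without RVT sample 2, where SMIP004 against RVT became -0.51 (limma, adjusted p 0.0134) and BTZ against RVT -0.55 (adjusted p 0.00806), against 0.08 and 0.04 in the full model, and leaving out other samples gave up to 0.67 and 0.63. The count of member probes called for SMIP004 was 11 without the RVT samples, where 74.8% of all probes passed. It was also 11 with only the 2 groups compared, for which the share of all probes is not given. By an unadjusted p of 0.05 and a 2-fold change (limma) the count was 5 for BTZ (37.2% of all probes) and 8 for CPT (34.0%). With 1 probe per gene it was 8 for CPT, where fewer probes were tested and 5569 of all 8783 passed. Leaving out 1 sample moved the count from 6 to 11 for SMIP004, from 5 (without BTZ sample 1) to 12 for BTZ, from 8 (without CPT sample 2 or DMSO sample 1) to 14 for CPT, from 0 to 7 for RVT, from 37 to 64 for the 6 pairs and from 12 to 14 for the F test. The number of all probes that passed also moved with the sample left out, so these shifts are not particular to the members. Samples with the same replicate number did not deviate together in 10 pairs of groups (correlations -0.19 to 0.09), so the numbers were not taken as pairing. With the replicate number as a block, 138 of 140 member values kept their side of the threshold. The CPT rise of BCL2L11 ILMN_2359627 (limma, adjusted p 0.0601) and fall of BCL2L12 ILMN_1731193 (adjusted p 0.053) did not. CPT thus had 11 member calls, where 6832 of all 11111 probes passed. Of 590 values for the named genes of the other lists, 539 kept their side and 51 lost the call. Probes near background (BAK1, BCL2L11, BID ILMN_2372413 and BCL2L12 ILMN_1731193) allow bounds only against a group that no array detected, and a fit on 1 slide was not possible for BTZ, CPT or RVT against DMSO or for all 6 pairs together.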
